A study of Homo sapiens and Mus musculus with 13 samples.

Results

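The aldo-keto reductase genes described here are 8 genes, AKR1A1, AKR1B1, AKR1B10, AKR1C1, AKR1C2, AKR1C3, AKR1E2 and AKR7A2, taken by name from the 24523 gene symbols of the human table, in all 7 of its libraries. The libraries are poly(A) RNA-Seq of MDA-MB-231, a human triple-negative breast cancer cell line, among 13 samples of a series whose 6 mouse tumors were not analysed here. Every line was made by lentivirus with Cas9 and guide RNAs and puromycin selection, and the methods do not describe single clones. Control (1 line) carried a guide to GFP, which all knockdown lines replaced by guides to the targets. TRIM11-KD1 and TRIM11-KD2 carried TRIM11 guide 1 or 2, KDM5C-KD1 and KDM5C-KD2 carried KDM5C guide 1 or 2, and the double knockdowns DKD1 and DKD2 carried TRIM11 guide 1 or 2 together with KDM5C guide 2. TRIM11 is a ubiquitin ligase, KDM5C is a demethylase of histone H3 lysine 4, and the study asked which genes respond to each of them and to both.

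Aldo-keto reductases are cytosolic enzymes that reduce aldehydes and ketones to alcohols, mostly with NADPH. AKR1B1, aldose reductase, turns glucose into sorbitol in the polyol pathway, and its relative AKR1B10 reduces retinal and lipid aldehydes. The AKR1C enzymes act on steroids and prostaglandins: AKR1C1 inactivates progesterone, AKR1C2 inactivates dihydrotestosterone, and AKR1C3 makes testosterone and prostaglandin F. AKR1A1 and AKR7A2 are broadly expressed aldehyde reductases, and several genes of the family are known targets of NRF2, the transcription factor of the oxidative stress response.

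The values are FPKM, fragments per length of gene and number of mapped fragments, so levels can be set side by side between genes. The deposited columns summed to between 493543 and 513462 FPKM and carry no read numbers, so the depth and the counting error of these values are unknown. The 5 markers of this mesenchymal line (VIM, CD44, AXL, CAV1 and MSN) were at 188 FPKM or more in every library. Of 8 luminal or epithelial markers, ESR1 and PGR were at or near 0 and CDH1 was between 0.615 and 1.98 FPKM, while EPCAM (4.03 to 12.3), GATA3 (4.41 to 8.92), ERBB2 (17.8 to 23.7), KRT19 (194 to 319) and KRT18 (296 to 440.5) were detected in every library. Where 2 values are given for a knockdown, the first is that of line 1 and the second that of line 2. TRIM11 mRNA did not follow the labels: it was 12.6 FPKM in Control, 13.4 and 10.6 in TRIM11-KD1 and TRIM11-KD2, 13.6 and 14.2 in the KDM5C-KD pair, and 16.1 and 9.38 in the DKD pair. The RNA therefore does not check the labels with a TRIM11 guide. Cutting by Cas9 can remove a protein without lowering its mRNA, and by the methods the lines were checked by western blot, which is not analysed here. The lines are called here the libraries labelled TRIM11-KD or DKD. KDM5C mRNA was 30.3 FPKM in Control, 29.8 and 28.4 in the pair labelled TRIM11-KD, 20.6 and 21.4 in those labelled KDM5C-KD, and 18.8 and 22.7 in those labelled DKD. All 4 libraries with a KDM5C guide were below the other 3.

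AKR1C1, AKR1C2 and AKR1C3 are close copies that lie beside each other, so their sequences show what reads can tell apart. Over a coding sequence of 969 bases each, AKR1C1 and AKR1C2 had the same base at 98.0% of positions (19 differing), AKR1C1 and AKR1C3 at 91.4% (83 differing) and AKR1C2 and AKR1C3 at 91.0% (87 differing). Coding exon 2, of 168 bases, is the exon with the most differences between AKR1C1 and AKR1C2, 10 of the 19. Its genomic sequence in hg19 is printed 5′ to 3′ on the coding strand for AKR1C1 (chr10:5008106-5008273, plus strand), AKR1C2 (chr10:5043706-5043873, minus strand) and AKR1C3 (chr10:5138602-5138769, plus strand). Capitals mark the 17 positions at which the 3 genes are not all the same.
AKR1C1: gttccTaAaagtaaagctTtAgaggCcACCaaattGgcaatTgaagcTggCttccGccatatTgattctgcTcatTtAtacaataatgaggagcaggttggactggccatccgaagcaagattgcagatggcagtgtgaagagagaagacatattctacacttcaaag
AKR1C2: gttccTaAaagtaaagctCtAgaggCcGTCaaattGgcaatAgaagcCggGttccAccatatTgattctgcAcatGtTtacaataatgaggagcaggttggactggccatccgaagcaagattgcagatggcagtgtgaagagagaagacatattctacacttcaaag
AKR1C3: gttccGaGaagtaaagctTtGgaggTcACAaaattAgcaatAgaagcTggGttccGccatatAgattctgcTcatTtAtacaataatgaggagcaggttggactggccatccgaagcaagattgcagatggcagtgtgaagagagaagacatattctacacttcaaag

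Coding exon 8, of 83 bases, shows the opposite case. It had no difference between AKR1C1 (chr10:5018043-5018125, plus strand) and AKR1C2 (chr10:5034023-5034105, minus strand) in hg19. Against AKR1C3 (chr10:5147787-5147869, plus strand) both differed at 14 positions, which are in capitals.
AKR1C1: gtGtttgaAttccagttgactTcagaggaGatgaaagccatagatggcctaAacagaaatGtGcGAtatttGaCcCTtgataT
AKR1C2: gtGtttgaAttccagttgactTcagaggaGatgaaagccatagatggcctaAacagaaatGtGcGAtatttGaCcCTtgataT
AKR1C3: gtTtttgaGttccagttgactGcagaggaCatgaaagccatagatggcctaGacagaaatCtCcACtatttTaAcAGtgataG
Coding exon 7, of 166 bases, had no difference between AKR1C2 and AKR1C3 and 1 between AKR1C1 and either of them. The reads were 150 bases long. Of all stretches of 150 bases in the Ensembl canonical transcript of each gene, 7.91% in AKR1C1, 17.2% in AKR1C2 and 2.12% in AKR1C3 were also found in another AKR1C transcript. These transcripts are 6543, 3215 and 1186 bases long, and the stretches shared numbered 506, 528 and 22. The shares therefore depend on transcript length, and the annotation behind the FPKM values may use other transcripts. For AKR1B1, AKR1B10 and AKR7A2 the share with the other transcripts of their own subfamily was 0. AKR1A1 and AKR1E2 were not compared with any other transcript. How the estimation divided shared reads is not given in the sources used here, so the split among AKR1C1, AKR1C2 and AKR1C3 is uncertain and their sum is given as well.

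The likeness extends to the promoters of AKR1C1 and AKR1C2. RefSeq promoter sequences (GRCh38.p14, 250 bases before to 50 after the start) were found for 7 of the 8 genes, all but AKR1B10. The 250 bases before the start are shown for AKR1C1 (chr10:4963165-4963414, plus strand) and AKR1C2 (chr10:5003858-5004107, minus strand), 5′ to 3′ on the coding strand. Lower case marks a run of 245 bases that both share, and capitals the 5 bases of each outside it.
AKR1C1: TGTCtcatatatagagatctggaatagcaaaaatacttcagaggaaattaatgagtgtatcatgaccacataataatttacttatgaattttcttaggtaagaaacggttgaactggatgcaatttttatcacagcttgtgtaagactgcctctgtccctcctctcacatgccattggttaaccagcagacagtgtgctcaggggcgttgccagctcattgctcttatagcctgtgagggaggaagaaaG
AKR1C2: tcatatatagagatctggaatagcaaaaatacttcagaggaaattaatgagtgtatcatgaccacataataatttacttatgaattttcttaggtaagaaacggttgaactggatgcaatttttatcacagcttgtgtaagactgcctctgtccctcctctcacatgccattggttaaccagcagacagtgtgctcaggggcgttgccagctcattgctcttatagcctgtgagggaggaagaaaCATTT
The core of the antioxidant response element, the site of NRF2, was searched as TGACNNNGC on both strands, and 13.3% of 35116 promoters of this length held it. Among the 7 genes it was found in AKR7A2, 3 times (GCCGGGTCA, TGACCGCGC and TGACCGGGC). The AP-1 site TGANTCA, whose matches can overlap longer forms of the antioxidant response element, stood in 7.71% of promoters and in none of the 7. These windows do not reach distant sites, and a match or its absence is a description of these letters only.

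AKR1B1 had the highest level of the 8 genes, with a mean of 311 FPKM over the 7 libraries, above 98.4% of the genes tested. It was followed by AKR1C3 (mean 55.8), AKR1A1 (45.0), AKR7A2 (32.3), AKR1C1 (14.6), AKR1C2 (3.31), AKR1B10 (2.50) and AKR1E2 (1.36). AKR1B1 was above AKR1C3 in 7 of 7 libraries with no overlap, and every other pair of neighbours in this order overlapped over the libraries. AKR1B1 alone made up 63.0 to 69.5% of the summed FPKM of the 8 genes in each library. The spread over the libraries followed another order. The SD of log2(FPKM + 0.1) was 2.66 for AKR1C3, 2.43 for AKR1C1, 1.78 for AKR1C2 and 1.19 for AKR1E2, each larger than that of more than 97% of the genes tested, while it was 0.51 for AKR1B1 and 0.27 for both AKR1A1 and AKR7A2.

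**Figure D1:**
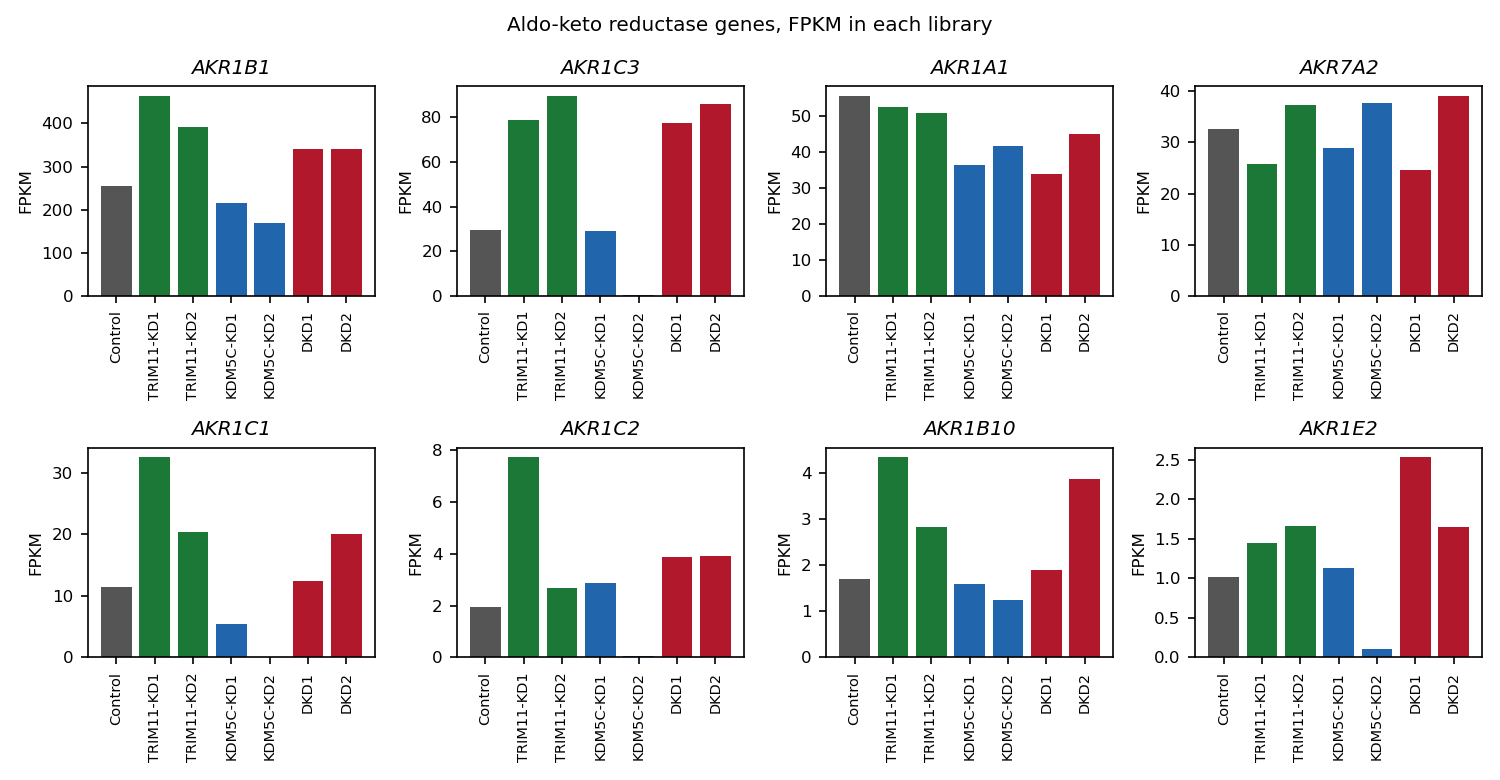
FPKM (vertical axis, linear, from 0) of the 8 genes, 1 bar for each library, in grey for Control, green for TRIM11-KD, blue for KDM5C-KD and red for DKD. AKR1B1 and AKR1C3 are highest in the libraries labelled TRIM11-KD and DKD, and AKR1C1, AKR1C2, AKR1C3 and AKR1E2 are close to 0 in KDM5C-KD2.

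AKR1C3 had 29.5 FPKM in Control, 78.9 and 89.4 in the pair labelled TRIM11-KD, 29.2 and then 0.435 in the pair labelled KDM5C-KD, and 77.6 and 85.6 in the libraries labelled DKD. The 4 libraries with a TRIM11 guide lay together, all above the other 3. AKR1C1 had 11.5 FPKM in Control, 32.5 and 20.4 in TRIM11-KD1 and TRIM11-KD2, 5.42 and 0.123 in the KDM5C-KD pair, and 12.5 and 20.1 in the DKD pair. Here too the 4 libraries with a TRIM11 guide were above the others, though DKD1 was only slightly above Control. AKR1C2 had 1.96 FPKM in Control, 7.73 and 2.69 in TRIM11-KD1 and TRIM11-KD2, 2.87 and 0.0659 in the KDM5C-KD pair, and 3.88 and 3.94 in the DKD pair. TRIM11-KD2 was below KDM5C-KD1, so the groups with and without a TRIM11 guide overlapped. AKR1E2, a less studied reductase next to the AKR1C genes, had 1.02 FPKM in Control, 1.44 and 1.66 in the pair labelled TRIM11-KD, 1.13 and 0.107 in those labelled KDM5C-KD, and 2.53 and 1.65 in those labelled DKD. Its 4 libraries with a TRIM11 guide were above the other 3.

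Summed over AKR1C1, AKR1C2 and AKR1C3, the level was 43.0 FPKM in Control, 119 and 112 in the pair labelled TRIM11-KD, 37.5 and 0.624 in the KDM5C-KD pair, and 93.9 and 109.7 in the DKD pair. The 4 libraries with a TRIM11 guide were again above the other 3. AKR1C3 held 66.2 to 82.6% of this sum in every library, AKR1C1 13.3 to 27.3% and AKR1C2 2.39 to 10.6%.

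**Figure D2:**
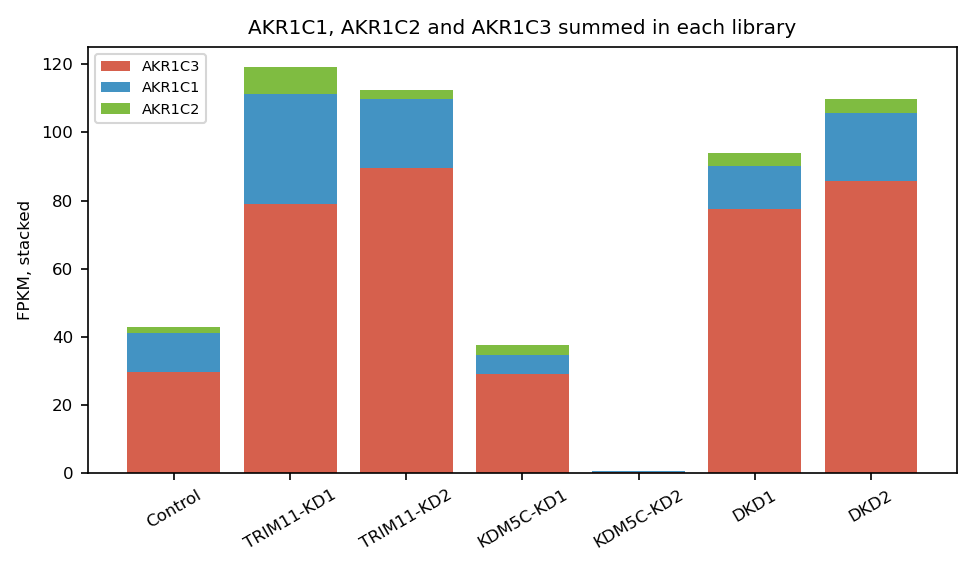
Stacked FPKM (vertical axis, linear) of AKR1C3, AKR1C1 and AKR1C2 in each of the 7 libraries. The sum is 43.0 in Control, 93.9 to 119 in the 4 libraries with a TRIM11 guide, 37.5 and 0.624 in the KDM5C-KD pair, and AKR1C3 is the largest share in each.

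AKR1B1, on chromosome 7, had 256 FPKM in Control, 464 and 391 in the pair labelled TRIM11-KD, 214 and 169.9 in those labelled KDM5C-KD, and 341 and 339.5 in those labelled DKD. The 3 knockdown groups and Control did not overlap for this gene. AKR1B10, its neighbour in the same cluster, had 1.71 FPKM in Control, 4.35 and 2.83 in TRIM11-KD1 and TRIM11-KD2, 1.59 and 1.25 in the KDM5C-KD pair, and 1.89 and 3.89 in the DKD pair. All 4 libraries with a TRIM11 guide were above the other 3, with DKD1 close to Control.

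The 2 broadly expressed reductases on chromosome 1 did not show this order. AKR1A1 had 55.4 FPKM in Control, 52.5 and 50.7 in the pair labelled TRIM11-KD, 36.3 and 41.6 in those labelled KDM5C-KD, and 33.8 and 44.9 in those labelled DKD. The 4 libraries with a KDM5C guide were below the other 3. AKR7A2, which reduces succinic semialdehyde and aflatoxin aldehydes, had 32.6 FPKM in Control, 25.7 and 37.3 in TRIM11-KD1 and TRIM11-KD2, 28.9 and 37.8 in the KDM5C-KD pair, and 24.6 and 39.1 in the DKD pair. Every group overlapped with every other for AKR7A2, and in each knockdown the second line was above the first.

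The presence of a TRIM11 guide was then tested over all 7 libraries, with the presence of a KDM5C guide as the second term. The rule was a ratio of group means of at least 1.5 and an unadjusted p under 0.05 in limma. It follows the thresholds of the study, a 1.5-fold change and p under 0.05, but the study does not mention limma. The p comes from the fit with both guides, while the ratio of means was not adjusted for the other guide. By this rule 6 of the 8 genes were higher with a TRIM11 guide, against 2.07% of the 12636 genes tested, and none was lower (1.86%). These were AKR1C3, AKR1C1, AKR1C2, AKR1E2, AKR1B1 and AKR1B10. For 5 of the 6, all but AKR1C2, the libraries with and without the guide did not overlap, as in 4.2% of all genes in this direction, and no member lay wholly below (4.55%). None passed Benjamini-Hochberg adjustment over all genes in limma (adjusted p from 0.448 to 0.466 for the 6), and neither did any of the 12636 genes, of which 1348 (10.7%) had an unadjusted p under 0.05. The median log2 difference of the 8 genes was 0.76 and that of all genes -0.01.

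AKR1B1 had the narrowest interval of the 6. Its mean was 384 FPKM with and 213 FPKM without a TRIM11 guide, and the difference on the log2(FPKM + 1) scale was 0.79 (standard error 0.12, 95% interval 0.52 to 1.06, limma adjusted p = 0.448). AKR1C3 had means of 82.9 and 19.7 FPKM and a difference of 2.78 (standard error 0.98, interval 0.47 to 5.09, limma adjusted p = 0.448). AKR1C1 had means of 21.4 and 5.66 FPKM and a difference of 2.03 (standard error 0.62, interval 0.58 to 3.49, limma adjusted p = 0.448). The differences of AKR1C2, AKR1E2 and AKR1B10 were 1.14, 0.73 and 0.68, with lower ends of their 95% intervals at 0.03, 0.09 and 0.17. For AKR1A1 the difference was -0.04 (interval -0.32 to 0.24) and for AKR7A2 -0.08 (interval -0.55 to 0.39). The summed AKR1C level had a difference of 2.78 (standard error 1.02, limma adjusted p = 0.449).

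The library KDM5C-KD2 set much of the size of these differences for the genes on chromosome 10. Without it the difference was 1.46 for AKR1C3 (standard error 0.10, limma adjusted p = 0.0619), 1.25 for AKR1C1, 0.64 for AKR1C2 and 0.43 for AKR1E2, and was 0.70 for AKR1B1 and 0.64 for AKR1B10. AKR1C2 then no longer met the rule. Without Control, AKR1B1, AKR1C1, AKR1C3 and AKR1E2 met it, without DKD1 AKR1B1, AKR1B10 and AKR1C1, and without DKD2 AKR1B1 and AKR1C1, which met it with each of the 7 libraries left out in turn.

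**Figure D3:**
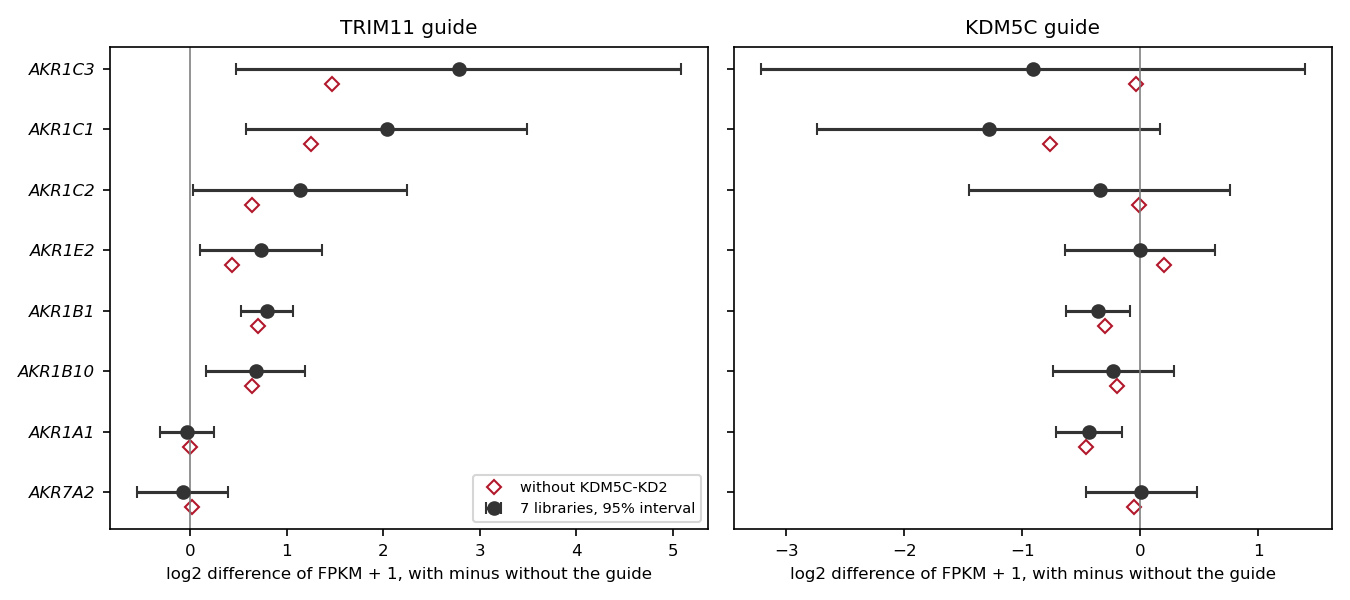
Log2 difference of FPKM + 1 between libraries with and without a TRIM11 guide (left) and with and without a KDM5C guide (right), from the additive limma fit. Filled points with bars are the 7 libraries with 95% intervals, and open diamonds the same without KDM5C-KD2. For the TRIM11 guide 6 intervals lie above 0, from 0.68 for AKR1B10 to 2.78 for AKR1C3, and the diamonds of the chromosome 10 genes lie closer to 0.

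For the KDM5C guide, none of the 8 genes met the rule of fold and unadjusted p in either direction, against 1.84% of all genes higher and 1.65% lower. Without KDM5C-KD1 or without KDM5C-KD2, AKR1C1 met it as lower, and without DKD1 or without DKD2, AKR1B1 did. By adjusted p in limma, 1 of the 12636 genes passed (0.00791%), which was none of the 8, and 1397 (11.1%) had an unadjusted p under 0.05. For AKR1A1 alone of the 8 the libraries with a KDM5C guide all lay below the others, as in 5.07% of all genes (5.64% above). AKR1A1 had a mean of 39.2 FPKM with and 52.9 FPKM without a KDM5C guide, a log2 difference of -0.44 (standard error 0.12, interval -0.72 to -0.16, limma adjusted p = 0.383). Its ratio of 0.741 did not reach the fold. AKR1B1 had a difference of -0.36 (interval -0.63 to -0.09, limma adjusted p = 0.392) and a ratio of 0.72. The intervals of the other 6 genes held 0, that of AKR1C3 from -3.22 to 1.39. The median over the 8 genes was -0.35 and over all genes 0.00.

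Whether the effect of one guide differed with the other present was tested by an interaction term over the 7 libraries. No member passed (limma adjusted p from 0.909 to 0.997), and none had an unadjusted p under 0.05, against 2 (0.0158%) and 694 (5.49%) of all genes. The largest interaction among the 8 genes was that of AKR1C3, 2.17 with a standard error of 2.00. Without KDM5C-KD1 it was 4.37 (limma adjusted p = 0.0328) and without KDM5C-KD2 it was -0.03. With either left out, KDM5C-KD is 1 library, which the fit assumes to vary like the groups with 2 lines.

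The groups with 2 lines each were compared with one another next, over the 6 knockdown libraries. These 3 comparisons share libraries, so each is given by its own values. In the libraries labelled KDM5C-KD against those labelled TRIM11-KD, 4 of the 8 genes were lower by fold and unadjusted p (2.28% of all genes lower) and none higher (3.09% higher). AKR1C3 was at a mean of 14.8 ± 20.3 (SD, n = 2) FPKM against 84.2 ± 7.47 (SD, n = 2), a log2 difference of -3.69 (standard error 1.26). AKR1C1 was at 2.77 ± 3.75 against 26.4 ± 8.60 FPKM (SD, n = 2 each), a log2 difference of -3.32 (standard error 0.78). AKR1B1 was at 192 ± 31.5 against 427 ± 51.4 FPKM (SD, n = 2 each), a log2 difference of -1.15 (standard error 0.16), and AKR1B10 at 1.42 against 3.59 FPKM, a log2 difference of -0.91. The adjusted p was 0.494 for all 4 in limma, and no gene of the table passed, with 1241 (9.82%) at an unadjusted p under 0.05. For 6 of the 8, all but AKR1C2 and AKR7A2, the groups did not overlap, as in 21.0% of all genes in this direction (22.5% in the other). Without KDM5C-KD2 the log2 difference was -1.49 for AKR1C3 and -2.06 for AKR1C1, and without KDM5C-KD1 it was -5.89 for AKR1C3 (limma adjusted p = 0.0054). The KDM5C-KD arm is then 1 library, in the second case KDM5C-KD2 itself, and the spread comes from the other groups. AKR1B1 and AKR1C1 met the rule with each library left out in turn, and without TRIM11-KD1 they were the 2 that did. With no filter on low values AKR1C3 no longer met it.

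In the libraries labelled DKD against those labelled KDM5C-KD, 4 of the 8 genes were higher by fold and unadjusted p (3.33% of all genes) and none lower (3.41%). AKR1C3 was at a mean of 81.6 ± 5.71 (SD, n = 2) FPKM in DKD, a log2 difference of 3.65 (standard error 1.26). AKR1C1 was at 16.3 ± 5.42 (SD, n = 2) FPKM with a log2 difference of 2.65 (standard error 0.78), AKR1B1 at 340.3 ± 1.09 (SD, n = 2) with 0.83 (standard error 0.16) and AKR1E2 at 2.09 ± 0.621 (SD, n = 2) with 0.99 (standard error 0.34). The limma adjusted p was between 0.379 and 0.389 for the 4, and no gene passed, with 1473 (11.7%) at an unadjusted p under 0.05. The groups did not overlap for 6 of the 8, all but AKR1A1 and AKR7A2, as in 21.3% of all genes in this direction (22.0% in the other). Without KDM5C-KD2 the log2 difference was 1.45 for AKR1C3, 1.39 for AKR1C1 and 0.66 for AKR1B1, which still met the rule, and 0.52 for AKR1E2, which did not. Without KDM5C-KD1 the difference of AKR1C3 was 5.85 (limma adjusted p = 0.00558), again with KDM5C-KD2 as the only library of its arm and the spread taken from the other groups. Without DKD1, AKR1B1, AKR1B10 and AKR1C1 met the rule, and without DKD2, AKR1B1 and AKR1E2. With no filter AKR1C3 no longer met it here either.

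In the libraries labelled DKD against those labelled TRIM11-KD none of the 8 genes met the rule in either direction (1.67% of all genes higher, 1.62% lower), and no gene of the table passed adjustment in limma, with 888 (7.03%) at an unadjusted p under 0.05. AKR1B1 was at 340.3 ± 1.09 against 427 ± 51.4 FPKM (SD, n = 2 each), a log2 difference of -0.32 (interval -0.70 to 0.06). The groups did not overlap for AKR1A1, AKR1B1 and AKR1C1, lower in DKD as in 19.3% of all genes (21.7% higher). AKR1A1 was at 39.4 ± 7.87 against 51.6 ± 1.27 FPKM (SD, n = 2 each), a log2 difference of -0.40 (interval -0.79 to -0.00163), and without DKD2 it met the rule as lower. AKR1C3 differed by -0.04 with an interval from -3.12 to 3.04, from a fit that shares 1 estimate of the spread over the 6 libraries. Without KDM5C-KD2 the standard error of that difference was 0.12 in place of 1.26.

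Control is 1 library, so the ratios to it have no replicate check and no p is given. A gene counted as above or below Control where the 1.5-fold was reached on FPKM + 0.1 by the first line and by the second. In the libraries labelled TRIM11-KD 4 of the 8 genes were above by this rule, against 2.8% of all genes tested, and none below (2.32%). The ratios were 2.66 and 3.02 for AKR1C3, 2.82 and 1.77 for AKR1C1, 1.81 and 1.53 for AKR1B1, and 2.45 and 1.61 for AKR1B10 in the first and second line. AKR1C2 had ratios of 3.79 and 1.35 and AKR1E2 1.38 and 1.57, each with 1 line short of the fold. The median log2 ratio of the 8 genes was 1.08 and 0.63 in the 2 lines, and that of all genes -0.02 and -0.01.

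In the libraries labelled DKD 3 of the 8 genes were above Control by the rule, against 5.38% of all genes, and none below (4.59%). The ratios were 2.62 and 2.89 for AKR1C3, 1.93 and 1.96 for AKR1C2, and 2.34 and 1.56 for AKR1E2. AKR1B1 had ratios of 1.33 in both lines, under the fold, and AKR1C1 1.09 and 1.75. In the libraries labelled KDM5C-KD 1 of the 8 genes, AKR1C1, was below Control by the rule, against 3.68% of all genes, and none above (4.84%). Its ratios were 0.478 and 0.0193. AKR1C3 had ratios of 0.988 and 0.018, so the 2 lines were far apart. KDM5C-KD2 alone put 5 of the 8 below by 1.5 times, against 12.5% of all genes, and KDM5C-KD1 alone 2, AKR1C1 and AKR1A1, against 5.59%.

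A level near 0 in KDM5C-KD2 was shared by 4 of the 8 genes, and these 4 lie together on chromosome 10 in hg19: AKR1E2 (ENSG00000165568, chr10:4828821-4890254, plus strand), AKR1C1 (ENSG00000187134, chr10:5005445-5025475, plus strand), AKR1C2 (ENSG00000151632, chr10:5029967-5060223, minus strand) and AKR1C3 (ENSG00000196139, chr10:5077546-5149878, plus strand). The log2 ratio of KDM5C-KD2 to the median of the other 6 libraries was -7.19 for AKR1C3, -6.16 for AKR1C1, -4.37 for AKR1C2 and -2.99 for AKR1E2. The 4 genes on other chromosomes were not near 0 there. These are AKR1B1 (chr7:134127108-134144036, minus strand), AKR1B10 (chr7:134212319-134226164, plus strand), AKR1A1 (chr1:46016215-46035721, plus strand) and AKR7A2 (chr1:19630459-19638638, minus strand). AKR1B1 and AKR1B10 also had their lowest level of all libraries in KDM5C-KD2, at 169.9 and 1.25 FPKM, while AKR1A1 and AKR7A2 did not.

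Other genes near the AKR1C genes were also lower in KDM5C-KD2, a comparison chosen after the values were seen. Within 2 Mb of the start of AKR1C1, 9 genes outside the family had a mean of at least 5 FPKM, and KDM5C-KD2 was the lowest of the 7 libraries for 9 of 9, against 23.4% of 7826 genes over the genome. The median log2 ratio to the other libraries was -0.90 for these 9 genes and 0.02 for all genes. NET1, a guanine nucleotide exchange factor, had 7.38 FPKM in KDM5C-KD2 and 16.9 to 30.2 in the other 6 libraries, and PFKP, platelet phosphofructokinase, had 119 against 192 to 254. The low values reached over the first 40 Mb of chromosome 10, where the median log2 ratio was -0.83, -0.84, -0.56 and -0.57 in successive bins of 10 Mb, and ended there, with medians of 0.09 to 0.31 beyond. In the other 6 libraries the medians of these first 4 bins were between -0.17 and 0.33. The 2 DKD libraries carried the same KDM5C guide 2 and did not have these low values. The log2 ratios of the 4 members were -2.99 to -7.19, against -0.55 to -1.40 for the 9 genes. DNA copy number of this region was not analysed here, and its part in the KDM5C-KD values of AKR1E2, AKR1C1, AKR1C2 and AKR1C3 was not tested. In bulk RNA, fewer cells with a transcript and less of it in each cell cannot be told apart.

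**Figure D4:**
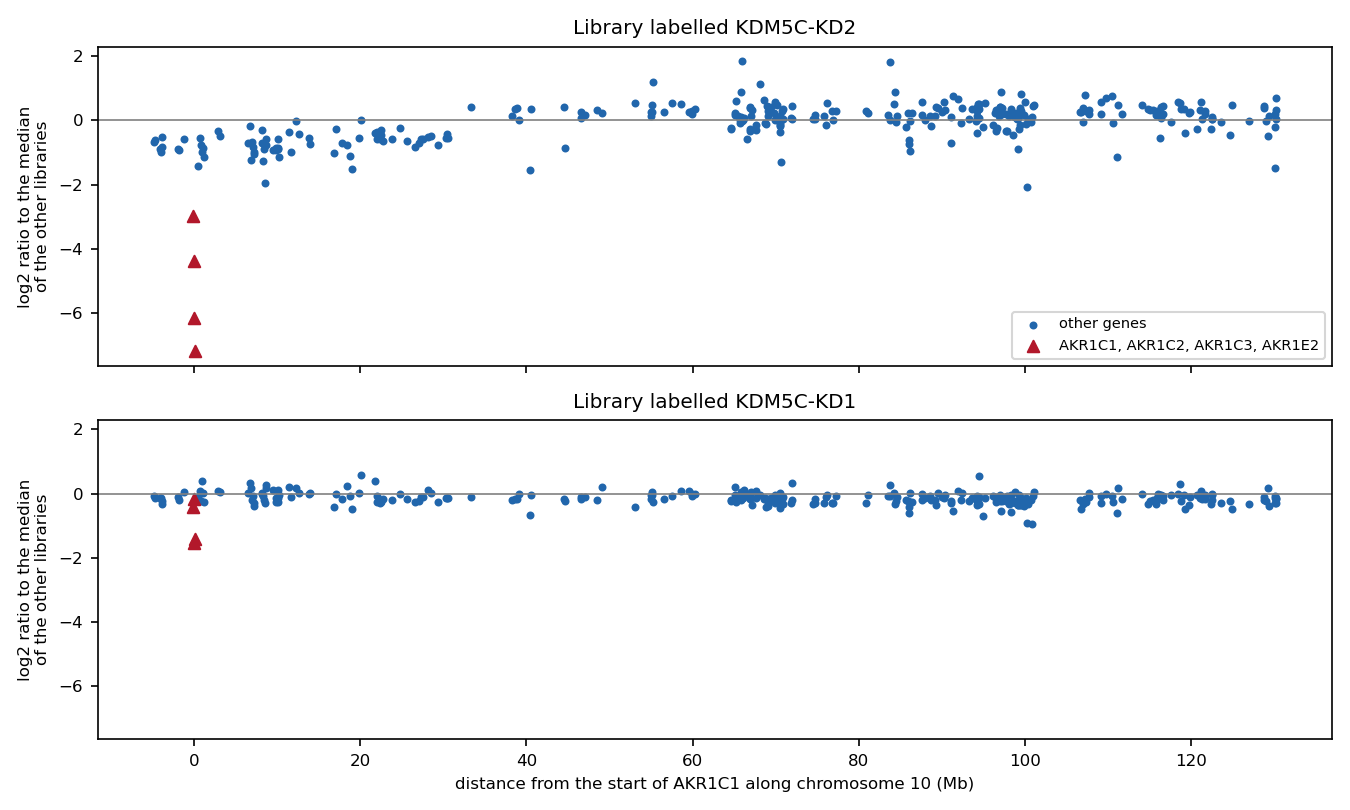
Log2 ratio of each gene of chromosome 10 to its median in the other libraries (vertical axis) against its distance from the start of AKR1C1 in Mb (horizontal axis), in KDM5C-KD2 above and KDM5C-KD1 below. Red triangles are AKR1E2, AKR1C1, AKR1C2 and AKR1C3, and blue points other genes with a mean of at least 5 FPKM. In KDM5C-KD2 the triangles lie from -2.99 to -7.19 and the blue points of the first 40 Mb of the chromosome lie mostly below 0.

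The genes whose pattern over the 7 libraries was most like that of AKR1C3, by Pearson's r of log2(FPKM + 0.1) among 8787 genes, were NMI (r = 0.988), MMADHC (0.988), BDNF (0.987), SERPINA1 (0.984) and LAPTM5 (0.983). For AKR1C1 they were MMADHC (0.991), UPF2 (0.988), TCIRG1 (0.984), LAPTM5 (0.978) and LAP3 (0.977). UPF2 lies on chromosome 10, 6.96 Mb from the start of AKR1C1. This is within the first 40 Mb that were low in KDM5C-KD2, where the log2 ratio of UPF2 was -0.68. All 7 points share 1 cell line, and the low KDM5C-KD2 library weighs heavily: over the other 6 libraries r was 0.789 to 0.926 for these 10 pairs. SERPINA1, the gene of alpha-1 antitrypsin, had the widest range of these genes, with 3.60 FPKM in Control, 12.9 and 13.0 in the pair labelled TRIM11-KD, 6.48 and 0.145 in those labelled KDM5C-KD, and 19.6 and 16.7 in those labelled DKD. MMADHC, a cobalamin transport gene, was between 63.9 and 90.9 FPKM, lowest in KDM5C-KD2. Among the members, r was 0.979 between AKR1C1 and AKR1C3, 0.977 between AKR1C3 and AKR1E2, 0.834 between AKR1B1 and AKR1C3, and -0.356 between AKR7A2 and AKR1C3.

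Of 11 other genes of the aldo-keto reductase family, 9 were in the table and 2 passed the filter of a mean of 0.5 FPKM. KCNAB2, a beta subunit of potassium channels with the reductase fold, had 6.80 FPKM in Control, 8.83 and 15.2 in the pair labelled TRIM11-KD, 10.3 and 9.70 in those labelled KDM5C-KD, and 7.55 and 18.1 in those labelled DKD. KCNAB1 was between 0.228 and 0.716 FPKM. Neither met the rule for either guide. AKR1B15, AKR7A3, AKR7L and KCNAB3 were at 0.724 FPKM or less in every library, AKR1C4 and AKR1D1 were listed at 0 in all 7, and AKR1CL1 was listed at 0 in all but DKD2.

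Other genes of the NRF2 pathway were described from a list of 25, of which 23 were tested. With a TRIM11 guide 3 of the 23 were higher by fold and unadjusted p (2.07% of all genes), none was lower (1.86%), and none passed adjustment in limma. The median log2 difference was 0.28. NQO1, a quinone reductase and widely used readout of NRF2, had 29.2 FPKM in Control, 47.4 and 92.0 in the pair labelled TRIM11-KD, 66.2 and 34.6 in those labelled KDM5C-KD, and 90.5 and 115 in those labelled DKD. Its log2 difference with a TRIM11 guide was 1.11 (standard error 0.29, limma adjusted p = 0.448). EPHX1, microsomal epoxide hydrolase, had 33.2 FPKM in Control, 49.5 and 57.2 in the pair labelled TRIM11-KD, 37.8 and 20.1 in those labelled KDM5C-KD, and 54.6 and 60.1 in those labelled DKD, with a log2 difference of 0.88 (standard error 0.21). The third was GCLM, the modifier subunit of glutamate-cysteine ligase, with 0.73. ABCC3, an efflux transporter, had a log2 difference of 0.60 and did not meet the rule. With a KDM5C guide 0 of the 23 met the rule (1.84% of all genes higher, 1.65% lower). Against Control, 6 of the 23 were above by the rule in the libraries labelled TRIM11-KD (2.8% of all genes), 4 in those labelled KDM5C-KD (4.84%) and 6 in those labelled DKD (5.38%), and none below (2.32%, 3.68% and 4.59%). The 4 in KDM5C-KD were SLC7A11, OSGIN1, FTL and FTH1, and not all followed the order of NQO1 and EPHX1. SLC7A11 had 11.2 and 13.1 FPKM in KDM5C-KD, 10.1 and 10.3 in TRIM11-KD, and 8.83 and 9.09 in DKD. FTH1 had 1881 and 1721 in KDM5C-KD, 1288 and 1371 in TRIM11-KD, and 1576 and 1281 in DKD.

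Enzymes that share substrates with these genes were described from 4 further lists. None of 17 tested other carbonyl and aldehyde enzymes met the rule for the TRIM11 guide (2.07% of all genes higher, 1.86% lower) or the KDM5C guide (1.84% and 1.65%). ALDH3A2, fatty aldehyde dehydrogenase, had 14.7 FPKM in Control, 14.2 and 16.4 in TRIM11-KD, 12.4 and 7.33 in KDM5C-KD, and 16.3 and 25.1 in DKD, and was higher in DKD than in KDM5C-KD by the rule (log2 difference 1.01, standard error 0.29). ALDH1A3 and DHRS3, both of retinoid metabolism, had log2 differences of 0.10 and -0.20 with a TRIM11 guide and did not meet the rule. In the polyol pathway, downstream of AKR1B1, SORD (sorbitol dehydrogenase) was between 21.7 and 30.5 FPKM and KHK (ketohexokinase) between 2.32 and 3.20, with log2 differences of 0.03 and -0.04 for the TRIM11 guide. SLC2A5, the fructose transporter, was at 0.214 FPKM or less.

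Of 13 tested steroid enzymes, 1 was higher (2.07% of all genes) and 1 lower (1.86%) with a TRIM11 guide by the rule. HSD17B8, a hydroxysteroid dehydrogenase, was lower, with 8.69 FPKM in Control, 5.76 and 3.91 in TRIM11-KD, 9.48 and 12.6 in KDM5C-KD, and 5.45 and 6.53 in DKD (log2 difference -0.77, standard error 0.16). STS, steroid sulfatase, was higher, with 6.07 FPKM in Control, 8.62 and 11.3 in TRIM11-KD, 6.10 and 6.63 in KDM5C-KD, and 8.08 and 11.8 in DKD (log2 difference 0.58, standard error 0.16). SRD5A1, steroid 5-alpha-reductase, had a log2 difference of 0.45 and did not meet the rule. Of 7 tested prostaglandin genes, 1 was lower with a TRIM11 guide by the rule, against 1.86% of all genes. This was PTGES, which makes prostaglandin E from the same precursor as AKR1C3, with 85.5 FPKM in Control, 61.3 and 47.9 in TRIM11-KD, 64.2 and 122 in KDM5C-KD, and 54.7 and 54.3 in DKD (log2 difference -0.67, standard error 0.21). PTGS1, a cyclooxygenase, had 1.54 FPKM in Control and 3.10 to 11.7 in the 6 knockdown libraries, and its log2 difference with a TRIM11 guide was 0.70 without meeting the rule. PTGES2, another prostaglandin E synthase, had a log2 difference of 0.20 with a TRIM11 guide, and was higher in DKD than in TRIM11-KD by the rule (0.65, standard error 0.27). None of these genes passed adjustment over all genes in limma.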

How the data were processed

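RNA-Seq of 7 libraries of MDA-MB-231 was analysed. Per the methods, the authors checked paired reads of 150 bases with FastQC, trimmed them with Cutadapt, mapped them to hg19 with HISAT2 and estimated expression with Cufflinks, and they deposited 1 table of FPKM values. The labels also list Bowtie 0.12.2. The annotation used is not given in the sources used here. FPKM keeps no read counts, so depth is unknown and count models were not used.

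Of rows sharing a symbol the one with the highest mean was kept (24523 symbols, after 27 symbols turned into dates were dropped). The 12636 genes with a mean of at least 0.5 FPKM were tested on log2(FPKM + 1) with limma 3.58.1 in R 4.3.3 (lmFit, eBayes with trend) and Benjamini-Hochberg adjustment over all of them. All 8 members passed the filter. Libraries are separate lines, but some share a guide: TRIM11-KD and DKD lines of the same number, and KDM5C-KD2 with both DKD lines. The fits treated all lines as independent, so p-values measure the spread between these lines and not between guides. Knockdown groups were compared over 6 libraries. Guides were tested over 7 libraries in an additive fit. Ratios to the 1 Control library used FPKM + 0.1 without a p-value. The limma script was tested on simulated data. Gene positions and exons come from GENCODE release 44 on hg19, promoters from RefSeq, which were read with Python 3.11.15, pandas 2.3.3 and Biopython 1.88.

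Members, lists and rules were chosen with earlier results of these data known, so they are not independent evidence. Named genes are all members, both targets, other family genes in the table, from each list the 3 genes with a mean of at least 5 FPKM and the widest range (or all of a short list), and the 5 genes most like AKR1C3 and AKR1C1. GCLM, SLC7A11, OSGIN1, FTL, FTH1 and the genes near AKR1C1 on chromosome 10 were chosen after their values were seen. Alternatives were other pseudocounts, filters, scalings and folds, no trend, a replicate block, fewer or more libraries in the fit, and each line left out in turn.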

Additional observations from a re-analysis of the deposited data

How the results depend on the processing

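Under other settings, 554 log2 differences of members between knockdown groups and guides kept their direction and their side of the adjusted p threshold in limma. Another 28 turned sign. The other 2 were those of AKR1C3 without KDM5C-KD1, -5.89 in KDM5C-KD against TRIM11-KD and 5.85 in DKD against KDM5C-KD. KDM5C-KD is then 1 library. No member passed adjustment in a main fit, so keeping their side does not show that the calls were stable. Calls by fold and unadjusted p were not part of this count. For the TRIM11 guide they were 6 in the main fit and 4 with a pseudocount of 0.1. Without a read depth, low members such as AKR1C2, AKR1B10 and AKR1E2 have no known counting error. The cause of the changes below was not tested.

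Members above Control were 1 for TRIM11-KD and 1 for DKD at a fold of 2, and members below it were 3 for KDM5C-KD by the mean of the 2 lines. Over all genes, the counts above and below Control were 128 and 150 for TRIM11-KD with a pseudocount of 1, 95 and 58 at a fold of 2, 754 and 612 by the mean of the lines, and 636 and 712 without a filter. For KDM5C-KD, 336 were above with a pseudocount of 1, 224 above and 185 below at a fold of 2, 1101 and 872 by the mean, and 970 and 1064 without a filter. For DKD they were 404 and 368, 273 and 204, 1189 and 959, and 1173 below without a filter.

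Genes with an adjusted p under 0.05 in KDM5C-KD against TRIM11-KD were 2 with a pseudocount of 0.1, 1 without a filter, 1 with scaling to the same total, 2 without a trend and 1 with only the 4 libraries compared. In DKD against TRIM11-KD they were 1, 1, 1 and 2 under the first 4 of these. For the KDM5C guide they were 0 with a pseudocount of 0.1, 0 with a mean of at least 1 FPKM and 3 with the replicate block. Without a filter, genes by fold and unadjusted p were 459 lower in KDM5C-KD against TRIM11-KD, 326 higher and 377 lower in DKD against TRIM11-KD, 400 and 408 for the TRIM11 guide, and 430 lower for the KDM5C guide. For the TRIM11 guide the members by this rule were 4 with a pseudocount of 0.1 (without AKR1C2 and AKR1E2) and 5 without a filter (without AKR1C2). Without a filter they were 3 in KDM5C-KD against TRIM11-KD and 3 in DKD against KDM5C-KD, both without AKR1C3. The share of all genes is not given here for the pseudocount of 0.1, nor for DKD against KDM5C-KD without a filter. The member counts under these settings cannot be set against it.

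Lines with the same number share a TRIM11 guide between TRIM11-KD and DKD, and KDM5C-KD2 shares KDM5C guide 2 with both DKD lines, while TRIM11-KD and KDM5C-KD lines share no guide. The labels name no shared culture or batch, and in the main fits the numbers were not taken as pairs. The deviations of same-numbered lines correlated at 0.371 for TRIM11-KD with DKD, which share a TRIM11 guide. They correlated at 0.273 for KDM5C-KD with DKD and at 0.088 for TRIM11-KD with KDM5C-KD. The replicate block took the numbers into the fit. With the replicate block the members by fold and unadjusted p were 6 in KDM5C-KD against TRIM11-KD, 5 in DKD against KDM5C-KD and 6 for the TRIM11 guide. The share of all genes by this rule with the block is not given here, so these counts cannot be set against it. For the KDM5C guide AKR1E2 turned to 0.0931 and AKR7A2 to -0.0881 with the block.

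With each library left out in turn, the members above Control were 5 for TRIM11-KD and 3 to 5 for DKD, and those below 2 to 5 for KDM5C-KD and 0 to 1 for DKD. All genes above and below were 619 to 1030 and 489 to 1135 for TRIM11-KD, 964 to 1398 and 706 to 1577 for KDM5C-KD, and 1143 to 1378 and 1054 to 1465 for DKD. Members by fold and unadjusted p were 2 to 5 lower in KDM5C-KD against TRIM11-KD, 2 to 5 higher in DKD against KDM5C-KD, 0 to 1 lower in DKD against TRIM11-KD, 2 to 6 higher for the TRIM11 guide and 0 to 1 lower for the KDM5C guide, and 0 to 1 members passed adjustment in the first and the second. All genes past adjustment, higher and lower by the rule were 1 to 10, 184 to 776 and 92 to 757 in the first, 0 to 17, 144 to 842 and 197 to 762 in the second, 0 to 7, 90 to 367 and 78 to 330 in the third, 0 to 1, 147 to 343 and 115 to 376 for the TRIM11 guide, and 0 to 1, 142 to 389 and 113 to 335 for the KDM5C guide.

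Scaling to the same total turned AKR1A1 in DKD against KDM5C-KD to -0.0159 and AKR7A2 in DKD against TRIM11-KD to -0.0057, and scaling by median ratios turned the latter to -0.0079. With each library left out in turn, the log2 differences that turned sign ranged from -0.1703 to 0.3494 for AKR7A2 in KDM5C-KD against TRIM11-KD, and in DKD against KDM5C-KD from -0.1957 to 0.2042 for AKR1A1 and from -0.41 to 0.2347 for AKR7A2. In DKD against TRIM11-KD they ranged from -0.6459 to 0.1121 for AKR1B10, -0.8302 to 0.4108 for AKR1C2, -0.1324 to 0.0467 for AKR1C3 and -0.3205 to 0.3242 for AKR7A2. For the TRIM11 guide they ranged from -0.1488 to 0.0512 for AKR1A1 and -0.2405 to 0.0819 for AKR7A2, and for the KDM5C guide from -0.1697 to 0.2631 for AKR1E2 and -0.151 to 0.1714 for AKR7A2.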
